A study of Mus musculus with 12 samples.

Results

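Wnt3a and Rspo2 were compared directly with each other in C57MG cells, using the 3 arrays of each single treatment, 6 of the 12 arrays in the series. These cells are an immortal line from mouse mammary epithelium, so all arrays come from 1 line. All cells were plated in serum-containing medium with insulin, moved to plain DMEM and then treated for 24 h. The Wnt3a arrays carry RNA from cells given 100 ng/ml recombinant mouse Wnt3a, and the Rspo2 arrays carry RNA from cells given 100 ng/ml recombinant human Rspo2. The other 6 arrays were BSA controls and cells given both proteins at those doses, and they are used here only for levels and for the estimate of spread. The labels call the 3 samples of a treatment biological replicates, and the paper states that they were 3 monolayers, each processed on its own. Separate experiments are not described, so the spread measured here is that between monolayers and arrays. The doses are equal by mass, not by activity, and a single time point was taken.

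Wnt proteins bind Frizzled receptors together with LRP co-receptors, which stabilises β-catenin and lets it switch on target genes with TCF/LEF factors in the nucleus. R-spondins are not Wnts. They bind LGR receptors and the membrane ubiquitin ligases Rnf43 and Znrf3, which otherwise remove Frizzled and LRP from the cell surface, so that an R-spondin raises the response to whatever Wnt is present. A direct comparison asks which transcripts distinguish cells that received the Wnt ligand from cells that received the R-spondin.

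Expression is given as log2 signal minus the 75th percentile of the same array, called the level, so that 0 is a probe at that percentile and a difference of 1 is 2-fold. Probes entered the test if every one of the 6 arrays had them well above background, as held for 20549 of 41174 probes and 11721 named genes. The 6 arrays correlated between 0.9893 and 0.996 within a treatment and between 0.9907 and 0.9946 across treatments. In a principal component analysis of the 6 arrays the leading component, with 40.7% of the variance, did not separate the treatments, while the next, with 25.8%, did. The arrays lay on 3 slides. Rspo2 replicates 2 and 3 and Wnt3a replicates 1 and 2 shared a slide, Rspo2 replicate 1 lay on the slide of the BSA arrays, and Wnt3a replicate 3 lay on the slide of the combination arrays. Levels set against BSA therefore differ in slide as well as treatment, except for Rspo2 replicate 1. Of 6 basal and myoepithelial markers 4 were above background on all 6 arrays (*Krt14*, *Krt17*, *Trp63* and *Acta2*) and *Myh11* on none. Of 5 luminal markers *Krt8* was above background on all 6 arrays, *Krt18* on 1, and *Epcam*, *Cdh1* and *Krt19* on none. Of 8 fibroblast markers 5 were above background on all 6 arrays, as were 2 of 5 macrophage and leukocyte markers (*Cd68* and *Lyz2*), while *Ptprc* was on none. Arrays measure RNA of the whole culture, so fewer cells of a kind and less RNA per cell cannot be told apart, and the number of arrays limits the precision of every difference.

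Few transcripts distinguished the treatments. With limma, 30 of 20549 probes (0.146%) differed at an adjusted p under 0.05 and by at least 2-fold, and these are the probes referred to as called. With Wnt3a 12 probes were higher (0.0584% of those tested) and 18 were lower (0.0876%). They stood for 26 named genes and 1 probe without a gene symbol. At adjusted p alone 88 probes were higher with Wnt3a (0.428%) and 291 were lower (1.42%), from 303 genes, and the median size of these differences was 0.58. On all 30 called probes the 3 Wnt3a values did not overlap the 3 Rspo2 values, which was so for 17.9% of all probes tested. The 30 were chosen on these same values, so this separation follows largely from the choice. The called probes were dim, with a median signal of 149 against 855 for all probes tested. Their folds depended on how background was removed. With normexp in place of the scanner software's correction, and very high local backgrounds set to the array's median (chosen after seeing the data), 25 of the 26 genes kept an adjusted p under 0.05 but 4 probes were called. The count was 56 (18 higher and 38 lower) without Wnt3a replicate 3, the array on the slide of the combination, and 25 (7 and 18) without Wnt3a replicate 2.

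**Figure D1:**
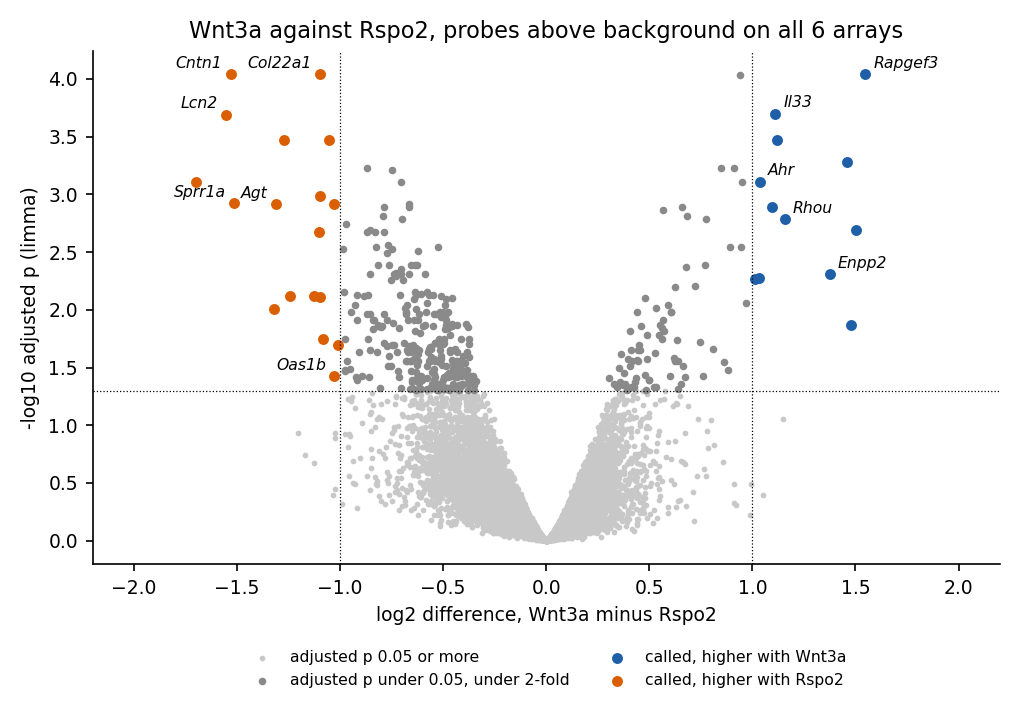
Each point is a probe, with the log2 difference (Wnt3a minus Rspo2) on the x axis and the -log10 adjusted p from limma on the y axis. The 12 blue and 18 orange probes passed both thresholds, drawn as dotted lines, and among the grey probes that passed the p threshold alone more were lower with Wnt3a than higher.

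Signalling proteins and transcription factors formed one group of the genes higher with Wnt3a. *Rapgef3* encodes Epac1, the exchange factor through which cyclic AMP activates Rap. Its level was -1.40, -1.15 and -1.32 on the Rspo2 arrays and 0.30, 0.44 and 0.038 on the Wnt3a arrays, a 2.92-fold difference (1.55 ± 0.105 SE on the log2 scale, n = 3 per group, limma adjusted p = 9.1e-05). All 3 Wnt3a arrays lay well clear of the Rspo2 arrays. *Rhou* encodes an atypical small GTPase known as a Wnt target. It stood at -2.01, -2.23 and -2.38 with Rspo2 and at -1.16, -1.18 and -0.82 with Wnt3a (difference 1.16 ± 0.136, limma adjusted p = 0.0016). The aryl hydrocarbon receptor *Ahr*, a ligand-activated transcription factor, was at -0.78, -0.64 and -0.79 with Rspo2 and at 0.31, 0.38 and 0.20 with Wnt3a (difference 1.04 ± 0.106, limma adjusted p = 7.7e-04). The BSA arrays had *Ahr* between -0.93 and -0.54, so the Rspo2 values lay inside the control range. *Helt*, a transcriptional repressor of the hairy family, differed by 1.02, and *Ppfibp2*, which encodes liprin-β2, differed by 1.46 and 1.51 on its 2 probes.

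Secreted and structural products made up most of the other genes higher with Wnt3a. *Enpp2* encodes autotaxin, the secreted enzyme that makes lysophosphatidic acid. Its level was -3.86, -4.47 and -4.58 with Rspo2 and -2.88, -2.70 and -3.20 with Wnt3a, a 2.59-fold difference (1.38 ± 0.192, limma adjusted p = 0.0049). The difference was 1.73 within the shared slide and 0.65 between the arrays on the other slides, the widest gap between those estimates among the called probes. *Il33*, a cytokine that is released when cells are damaged, was at -1.59, -1.75 and -1.79 with Rspo2 and at -0.62, -0.48 and -0.70 with Wnt3a (difference 1.11 ± 0.0891, limma adjusted p = 2.0e-04). Unlike *Ahr*, *Il33* was far above the BSA arrays under both proteins, since those arrays lay between -4.19 and -3.96. *Krtap1-5*, a keratin-associated protein of hair, differed by 1.48 and was not well above background on any BSA array. *Fam167a* (1.12), *Car6*, a secreted carbonic anhydrase (1.09), and *Cdhr1*, a photoreceptor cadherin (1.03), completed the group.

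**Figure D2:**
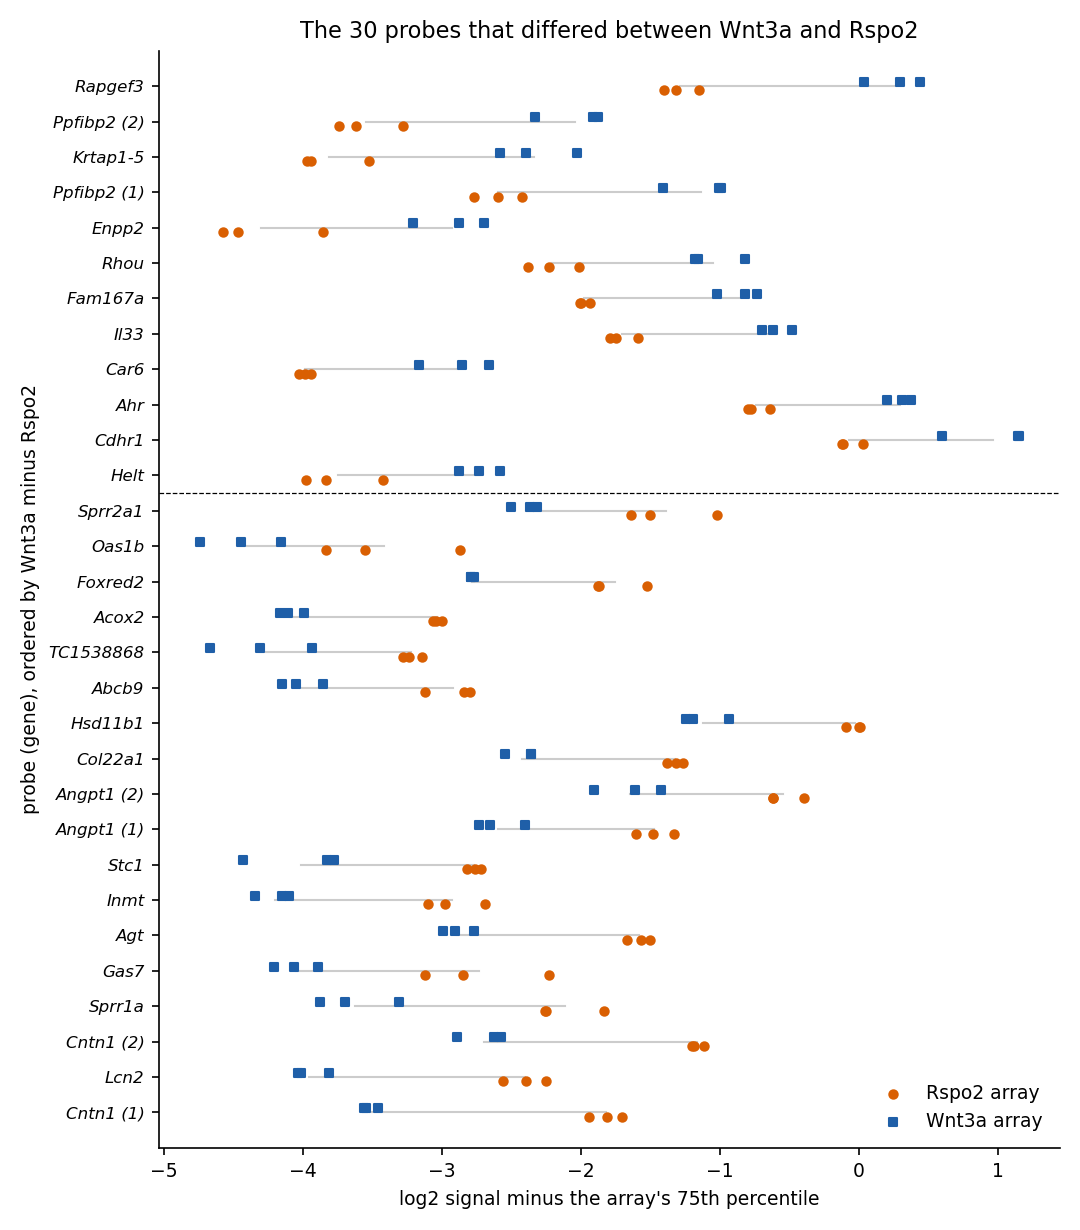
Level of the 30 called probes on each array (x axis, log2 signal minus the array's 75th percentile), 1 row per probe, with the 3 Rspo2 arrays as orange circles and the 3 Wnt3a arrays as blue squares. Grey lines join the group means, the dashed line divides the 12 probes higher with Wnt3a from the 18 lower with it, and the colours do not overlap in any row.

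Several of the genes lower with Wnt3a, that is, higher with Rspo2, encode secreted proteins. *Lcn2* encodes lipocalin 2, an iron-sequestering protein of innate immunity. Its level was -2.40, -2.56 and -2.25 with Rspo2 and -4.01, -4.03 and -3.81 with Wnt3a, so Rspo2 arrays were 2.93-fold higher (difference -1.55 ± 0.127, limma adjusted p = 2.0e-04). Both treatments were far below the BSA arrays, which lay between 1.78 and 2.04. *Agt*, the angiotensin precursor, was at -1.57, -1.67 and -1.50 with Rspo2 and at -2.99, -2.77 and -2.91 with Wnt3a (difference -1.31 ± 0.144, limma adjusted p = 0.0012). The BSA values of *Agt*, from -2.28 to -1.89, fell between those of the 2 proteins. *Angpt1*, a ligand of the endothelial receptor Tie2, was lower with Wnt3a on both of its probes, with differences of -1.13 and -1.10, and its Rspo2 values overlapped the BSA values on each. *Stc1*, the hormone stanniocalcin, differed by -1.24 and the collagen *Col22a1* by -1.10, the latter with a standard error of 0.0772.

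*Cntn1*, an adhesion molecule of the immunoglobulin superfamily, had the largest difference of any called probe. Its brighter probe was at -1.19, -1.11 and -1.202 with Rspo2 and at -2.62, -2.58 and -2.89 with Wnt3a, and its dimmer probe at -1.71, -1.81 and -1.94 against -3.56, -3.54 and -3.46. The differences were -1.53 ± 0.109 and -1.70 ± 0.175 (limma adjusted p = 9.1e-05 and 7.7e-04). On the combination arrays neither probe was well above background, while the BSA arrays, at -0.92 to -0.70 on the brighter probe, lay above those of both treatments.

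Enzymes of small-molecule metabolism formed another group lower with Wnt3a. *Hsd11b1* encodes the enzyme that regenerates active glucocorticoid inside cells. It stood at -0.095, 0.00 and 0.0096 with Rspo2 and at -1.195, -0.94 and -1.24 with Wnt3a (difference -1.10 ± 0.117, limma adjusted p = 0.0010). *Inmt*, an N-methyltransferase of indole amines, was at -2.98, -3.10 and -2.69 with Rspo2 and at -4.34, -4.10 and -4.15 with Wnt3a (difference -1.27 ± 0.113, limma adjusted p = 3.4e-04). Both genes were above every BSA array with Rspo2: the BSA range was -0.81 to -0.73 for *Hsd11b1* and -4.17 to -4.02 for *Inmt*. With Wnt3a, *Hsd11b1* lay below every BSA array and *Inmt* overlapped them. *Acox2*, a peroxisomal oxidase of bile acid synthesis, differed by -1.05.

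The remaining genes lower with Wnt3a were of mixed function. *Sprr1a*, a precursor of the cornified envelope of skin, was at -2.25, -2.26 and -1.84 with Rspo2 and at -3.88, -3.70 and -3.31 with Wnt3a (difference -1.51 ± 0.164, limma adjusted p = 0.0012). A probe of the related *Sprr2a1* differed by -1.01, but another and far brighter probe given the same symbol differed by 0.22 (limma adjusted p = 0.39), and members of the *Sprr2* family are close enough in sequence that the transcript behind either probe is uncertain. *Gas7*, an actin-binding protein, differed by -1.32 (its other probe by -0.96, limma adjusted p = 0.28), the lysosomal peptide transporter *Abcb9* by -1.10 and *Foxred2*, a flavoprotein of the endoplasmic reticulum, by -1.03. *Oas1b*, from the family of interferon-induced oligoadenylate synthetases, differed by -1.03 and was the dimmest called probe.

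Because the slides do not hold equal numbers of each treatment, the difference was also taken between the 4 arrays of the shared slide. These 4 are among the 6 arrays that chose the called probes, whose values did not overlap over all 6. The same sign and the lack of overlap on that slide (47.8% of all probes tested) were therefore fixed in advance for all 30. In size, 26 of them differed by at least 2-fold there (0.414% of all probes). The called probes had to reach 2-fold on a mean that holds these 4 arrays, so this count follows largely from the choice as well. The pair of arrays on other slides was Wnt3a replicate 3 and Rspo2 replicate 1, where the sign was fixed likewise. A 2-fold difference was seen there for 19 of the 30 (0.92% of all probes). Both arrays are also part of the mean by which the 30 were chosen, so this count is not separate support. Adding slide to the model, which makes the estimate rest on the shared slide, gave 41 called probes (0.2%), of which 23 were among the 30. The adjusted p was then 0.05 or more for *Abcb9*, *Oas1b*, *Sprr2a1*, *Krtap1-5* and the unnamed probe. A fit of the 4 shared-slide arrays alone called 66 probes (0.321%), including 26 of the 30.

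The BSA and combination arrays took no part in the size of the difference between Wnt3a and Rspo2, so they give a separate reading of the same probes. From BSA to the combination all 12 probes higher with Wnt3a than with Rspo2 went up and all 18 lower ones went down, whereas 66.9% of all tested probes had the same direction in both differences. All BSA arrays lay on the same slide and all combination arrays on a different one. In the change from BSA to the combination, treatment and slide therefore cannot be told apart. Slides also bear on the share of all probes, since the BSA arrays share a slide with an Rspo2 array and the combination arrays with a Wnt3a array. Taking the Wnt3a and Rspo2 difference from the shared slide alone, the direction was the same for 57.5% of all tested probes. It was the same for all 30 called probes, but this repeats the count above. Those probes were chosen on all 6 arrays, and their sign on the shared slide was fixed by that choice. The change from BSA to the combination was larger than the difference between the single treatments for 28 of the 30. The same count was not taken over all probes, so it is no trait of the called ones. Of the called probes 25 were above background on all 3 combination arrays and 29 on all 3 BSA arrays, so for the others the change rests on values near background.

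**Figure D3:**
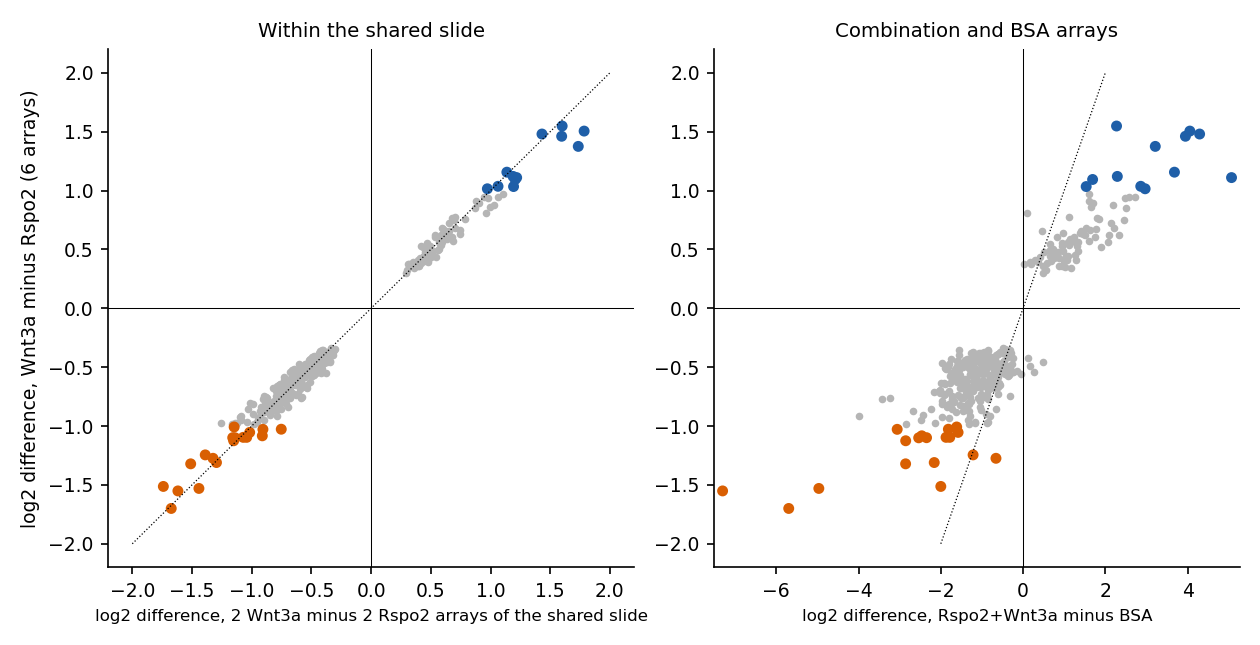
Both panels have the difference between Wnt3a and Rspo2 over all 6 arrays on the y axis (log2) for the 379 probes with an adjusted p under 0.05, the 30 called ones in colour. The left panel sets it against the difference within the shared slide, taken from 4 of those arrays. Its points follow the dotted line of equality. The right panel sets it against the combination minus BSA, groups that lay on different slides. There all called probes lie in the quadrants of equal sign and 28 of them lie beyond the line.

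**Figure D4:**
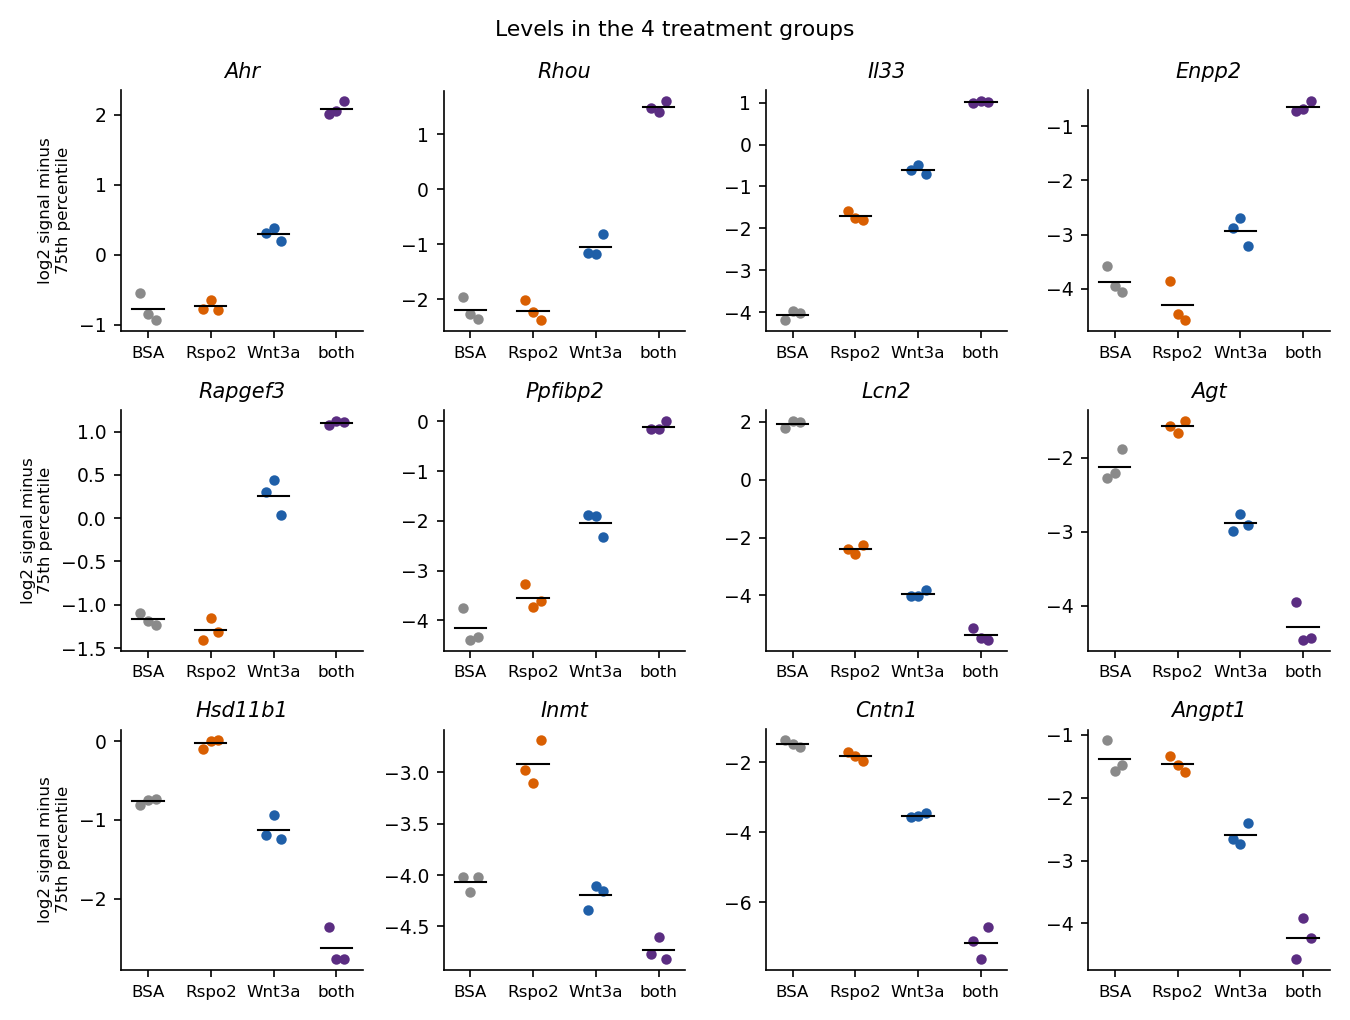
Level on each of the 12 arrays (points) and group mean (bar) for 12 called genes, on the log2 scale relative to the array's 75th percentile, with a separate y axis per gene. *Ahr* and *Rhou* sit at the BSA level with Rspo2, *Il33* and *Lcn2* have moved from BSA under both proteins, and *Agt* and *Hsd11b1* lie on opposite sides of BSA under the 2 proteins.

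Genes of Wnt/β-catenin feedback and known targets were taken from a list of 31, of which 16 could be tested. All 16 had a higher mean with Wnt3a, as did 6884 of all 11721 genes tested. The median difference of the 16 was 0.29 against 0.034 for all genes tested. The 16 were also all higher within the shared slide, whose arrays are part of the same comparison. Like the other lists, this one was written with earlier results of these data known. Its members *Rhou*, *Msln*, *Ccnd1* and *Twist1* are also in the study's tables of array values, so the common direction is not independent evidence. *Rhou*, *Tcf7* and *Msln* passed the adjusted p, which 0.529% of all genes did in that direction. *Tcf7*, a TCF/LEF factor that binds β-catenin, was at -2.26, -2.22 and -2.34 with Rspo2 and at -1.17, -1.27 and -1.55 with Wnt3a (difference 0.95 ± 0.121, limma adjusted p = 0.0029). *Msln*, the surface protein mesothelin, was at 3.34, 3.46 and 3.38 with Rspo2 and at 4.06, 4.19 and 3.98 with Wnt3a (difference 0.68 ± 0.0788, limma adjusted p = 0.0015). Neither gene reached 2-fold. *Tcf7* was named after its values were seen, *Msln* as one of the brightest of the list. Cyclin D1, *Ccnd1*, had a difference of 0.62 (95% interval 0.28 to 0.95, limma adjusted p = 0.069), and *Myc* one of 0.089 (-0.075 to 0.25). *Axin2*, *Lef1*, *Lgr5*, *Dkk1* and *Nkd1*, which are standard readouts of the pathway, were not well above background on any of the 6 arrays.

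Receptors, co-receptors and secreted inhibitors of the pathway showed no common direction. Of 38 listed genes 18 were tested, 9 with a higher and 9 with a lower mean with Wnt3a, and the median difference was 0.0083, a value whose sign turned with 7 of the alternative settings. *Lgr6*, an R-spondin receptor, passed the adjusted p, and it was named for that after its values were seen. Its level was -1.54, -1.37 and -1.41 with Rspo2 and -2.19, -2.44 and -2.30 with Wnt3a (difference -0.87 ± 0.107, limma adjusted p = 0.0021). The lower value was on the Wnt3a side, and the BSA mean of -1.92 lay between the treatments. *Lgr4*, the other R-spondin receptor that was detected, had a difference of -0.0051 with an interval of -0.22 to 0.21. Among the Frizzled receptors the brightest, *Fzd2*, gave 0.057 (-0.14 to 0.26) and the Wnt receptor *Ryk* gave 0.27 (0.065 to 0.47, limma adjusted p = 0.20). The ligases *Znrf3* and *Rnf43*, on which R-spondins act, gave 0.53 (0.11 to 0.95) and 0.32 (-0.10 to 0.74), and neither passed the adjusted p. Transcripts of the 4 R-spondins themselves were not above background on any array of either treatment.

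Interferon-stimulated genes encode antiviral proteins and the factors that transcribe them. Of 48 such genes 43 were tested, and 40 had a lower mean with Wnt3a than with Rspo2, against 41.3% of all genes tested. The median difference was -0.32, 11 passed the adjusted p, all of them lower with Wnt3a (1.39% of all genes did), and the values of 26 did not overlap between the treatments (17.5% of all genes). The mean over the 43 genes lay between -0.26 and -0.22 on the Rspo2 arrays and between -0.62 and -0.55 on the Wnt3a arrays. *Oas1b* alone was called at 2-fold. *Irf7*, a transcription factor that amplifies the interferon response, was at -2.07, -2.13 and -2.05 with Rspo2 and at -3.07, -2.96 and -2.74 with Wnt3a (difference -0.84 ± 0.146, limma adjusted p = 0.015). *Ifit3*, an antiviral effector, was at 0.31, 0.42 and 0.30 with Rspo2 and at -0.32, -0.27 and -0.29 with Wnt3a (difference -0.64 ± 0.0858, limma adjusted p = 0.0041). *Usp18*, which removes ISG15 from proteins and restrains interferon signalling, differed by -0.59 ± 0.0824 (limma adjusted p = 0.0049). These 3 genes are named because they were the ones that still passed with slide as a term, when 0.64% of all genes passed in that direction and the other 8 did not. Within the shared slide 39 of the 43 were lower with Wnt3a and the median was -0.33. Some members had intervals around 0: *Irf1* gave 0.078 (-0.10 to 0.26) and *Ifit2* -0.022 (-0.23 to 0.19). In both treatments most of these genes were below BSA, 32 of 43 with Rspo2 (median -0.37) and 39 of 43 with Wnt3a (median -0.65). These comparisons share the BSA arrays, and the share of all genes below BSA was not counted. The slide of the BSA arrays held no Wnt3a array and only replicate 1 of Rspo2. Treatment and slide therefore cannot be told apart for Wnt3a against BSA, and only in part for Rspo2.

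The interferon-stimulated response element, to which the IRF9 complex binds, has a core of GAAA, any 2 bases and GAAA again. It was searched on both strands in the 250 bases before each gene start in RefSeq (GRCm38.p6). Of the 43 genes tested 31 matched a promoter in that table, and of the genes tested in all 9062 of 11721, so a comparison of shares is void. As a description, 936 of 27025 genes with a promoter held the core (3.46%), as did 12 of those 31. Of the 11 interferon-stimulated genes past the adjusted p 6 matched a promoter, and *Ifit3* was the 1 that held the core. The promoter of *Ifit3* is shown because it passed the adjusted p in both fits and holds 2 matches, the nearer beginning 122 bases before the start. Its 250 bases at chr19:34583279-34583528, plus strand, are printed 5′ to 3′ with the matches to the core in capitals (here on the minus strand).
*Ifit3*: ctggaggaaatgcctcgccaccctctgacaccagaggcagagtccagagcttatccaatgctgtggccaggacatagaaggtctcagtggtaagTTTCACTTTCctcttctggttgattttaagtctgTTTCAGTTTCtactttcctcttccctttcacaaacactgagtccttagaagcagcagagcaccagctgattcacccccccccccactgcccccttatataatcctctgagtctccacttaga

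The TCF core CTTTGAT was present before 3.72% of all genes with a promoter. Among the called genes matched to a promoter it was found before *Cntn1*, 1 of 10 lower with Wnt3a, and before 0 of 8 higher with Wnt3a, and these shares too are void since 18 of 26 genes matched. The *Cntn1* promoter is shown as the gene with the largest difference. The first of its 3 listed starts has a match, and the 250 bases before it lie at chr15:92050915-92051164, plus strand, with the match (minus strand) in capitals, beginning 60 bases before the start.
*Cntn1*: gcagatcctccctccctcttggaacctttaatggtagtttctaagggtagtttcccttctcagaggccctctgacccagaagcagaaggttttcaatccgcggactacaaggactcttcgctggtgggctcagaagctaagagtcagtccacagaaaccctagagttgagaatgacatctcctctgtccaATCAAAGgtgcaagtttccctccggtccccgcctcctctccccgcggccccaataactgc

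Acute phase and complement genes, products of the innate immune response that are secreted into blood and tissue fluid, had the lowest median of the pathway lists. Of 27 genes 14 were tested, 13 had a lower mean with Wnt3a (41.3% of all genes did), and the median difference was -0.47 against 0.034 for all genes. *Lcn2*, *Agt*, *C3*, *Orm1*, *Orm2*, *Serping1* and *C1s1* passed the adjusted p and were lower with Wnt3a (1.39% of all genes), while *Ptx3* passed it and was higher, though not with slide as a term. *C3*, the central complement component, was at -0.91, -0.87 and -1.21 with Rspo2 and at -1.72, -1.93 and -2.08 with Wnt3a (difference -0.92 ± 0.153, limma adjusted p = 0.012). With slide as a term 4 of the 7 still passed (0.64% of all genes), and *C3*, *Orm2* and *C1s1* did not. *Orm1* and *Orm2* are near-identical in sequence and their probes may share transcripts. The BSA mean of *C3* was 1.198, above both treatments. *Saa1* (-0.070, interval -0.41 to 0.27) and *Cp* (-0.11, interval -0.32 to 0.11) did not pass.

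The other lists held few genes past the adjusted p. Of all 11721 genes tested 6884 had a higher mean with Wnt3a and 4837 a lower one. Of 11 chemokine genes tested 9 had a lower mean with Wnt3a, yet *Ccl9*, the one that passed, was higher (difference 0.55 ± 0.0939, limma adjusted p = 0.014), and *Ccl2* gave -0.045 (-0.30 to 0.21). Of 31 cell cycle genes 28 had a higher mean with Wnt3a with a median of 0.14, and of 37 ribosomal protein genes 36 did with a median of 0.14, but none passed in either list. For ribosomal protein genes the median within the shared slide was 0.022. In the list of angiogenic secreted factors genes passed in both directions: *Sema3c* (0.78), *Edn1* (0.63) and *Ccn2* (0.57) were higher with Wnt3a, and *Angpt1* and *Sema3a* (-0.70) were lower. Of 11 insulin and IGF pathway genes tested 9 had a lower mean with Wnt3a, with a median of -0.148. The binding protein *Igfbp4* (-0.48) passed as lower, whereas the insulin-like growth factor *Igf1* (0.77) and the receptor adaptor *Irs1* (0.66) passed as higher. The TGF-β receptor *Tgfbr2* was also higher (0.86). Of the Ahr battery, *Tiparp*, which restrains Ahr, was higher with Wnt3a as well (0.40, limma adjusted p = 0.031), while *Aldh3a1* did not pass (-0.042, interval -0.33 to 0.25). With slide as a term *Ccl9*, *Ccn2*, *Igfbp4*, *Irs1* and *Tiparp* no longer passed. In 13 further lists, from NF-κB and glucocorticoid targets to collagens, Hox genes and the unfolded protein response, the medians lay between -0.154 and 0.155 and at most 4 genes of a list passed. Except *Angpt1*, *Irs1* and *Ahr*, the genes of these lists that passed were named after their values were seen.

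**Figure D5:**
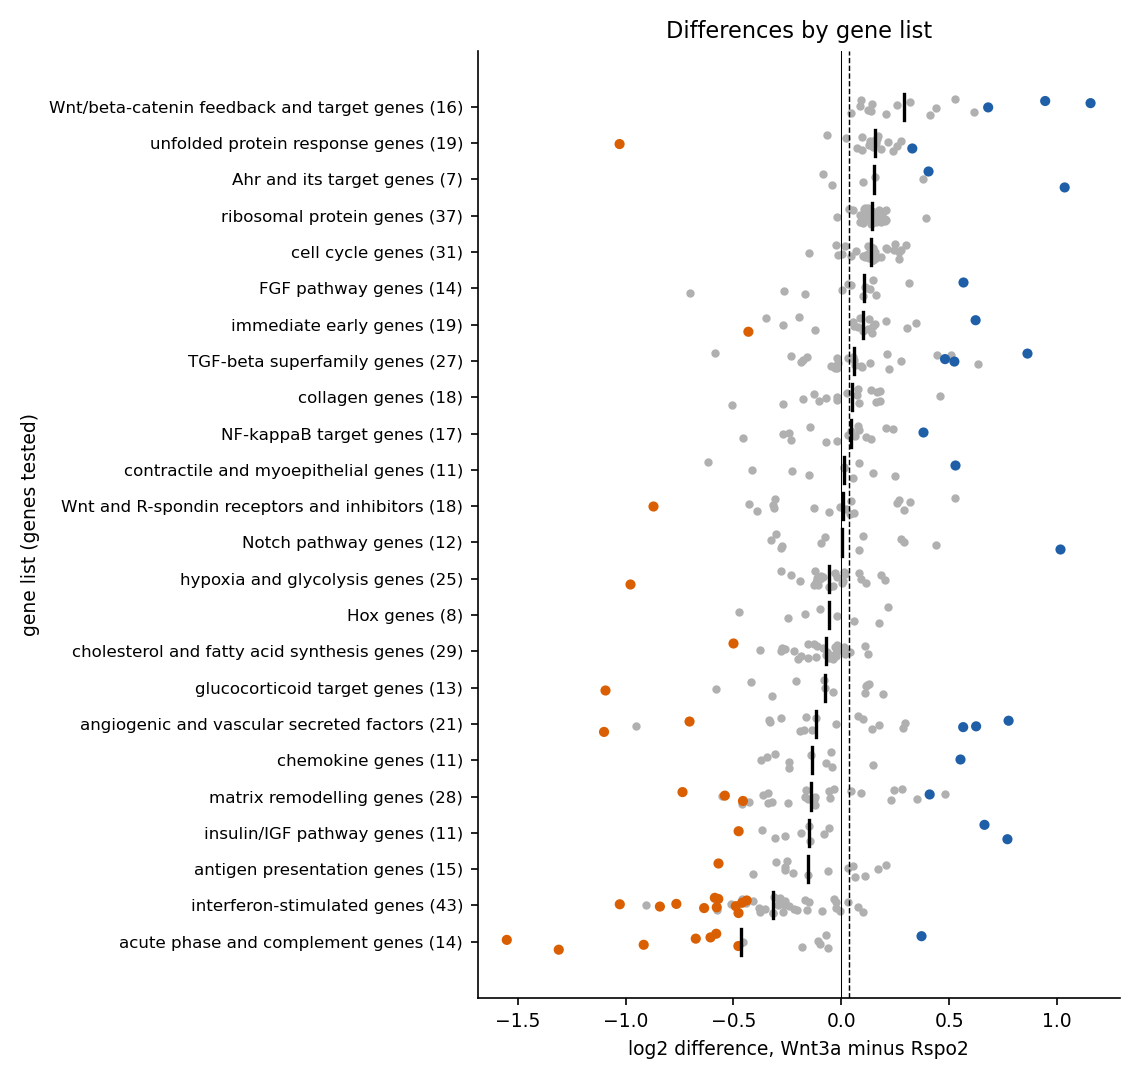
Each point is a gene, by its brightest tested probe, with the log2 difference (Wnt3a minus Rspo2) on the x axis and its list on the y axis, with the number of genes tested. Coloured points passed an adjusted p under 0.05, black bars are list medians and the dashed line is the median of all genes, 0.034: interferon-stimulated and acute phase genes lie to the left and Wnt targets to the right.

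Of 50 genes that the study lists in its tables of array values 37 were tested, and 7 were called higher and 2 lower with Wnt3a. By the brightest probe, 11 of all 11721 genes tested were called higher and 14 lower. Below 2-fold, the LIM domain gene *Fhl1* (0.89) and the spindle orientation gene *Insc* (0.85) were among the others that passed the adjusted p higher with Wnt3a. That list was chosen on these arrays and is not independent evidence of a direction. It also holds genes for which the proteins did not differ detectably: *Tcf4* gave 0.10 (-0.10 to 0.31) and *Fgfrl1* 0.11 (-0.12 to 0.34), intervals that exclude a 2-fold difference. *Rnd3* (0.36, interval 0.18 to 0.54, limma adjusted p = 0.055) lay just outside the threshold.

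A few probes were above background under 1 protein only. In a fit that admitted probes detected on the 3 arrays of either treatment 43 of 21588 were called (0.199%). There were 13 probes above background on all 3 Wnt3a arrays and on no Rspo2 array, and 7 of the opposite kind. These probes were chosen by the group in which they were detected, which fixes their direction, so their values are a description with no test. A fold is a lower bound, the bright group's mean against the dim group's with each dim array set no lower than its dimmest detected probe. *Hp*, the haemoglobin scavenger haptoglobin, was detected with Rspo2 (-4.13, -2.89 and -4.31), at least 2.997-fold above the bound for Wnt3a. *F11*, coagulation factor XI, was detected with Rspo2 at least 2.59-fold above it, but its 3 values of -2.07, -4.29 and -5.60 were widely spread. *Ranbp3l* was detected with Rspo2 at least 1.89-fold above it. Detected with Wnt3a were *Olfm4*, a secreted glycoprotein of intestinal crypts, at least 1.71-fold above the bound for Rspo2, and *Atp6v0e2*, a proton pump subunit, at least 1.68-fold above it.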

How the data were processed

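Total RNA of 12 cultures was hybridised to 1-colour Agilent whole mouse genome arrays, 1 per sample, on 3 slides. The authors deposited scanner files in which Agilent Feature Extraction 9.5.3.1 had subtracted local background and spatial trend from each spot's intensity. They also deposited a value table of ratio values, each signal divided by its array's 75th percentile, used here as an alternative. Aligners and genome builds do not apply to the array files. The 75th percentile of intensity ran from 773.9 to 1022 on the 6 arrays compared, and 51.28 to 58.83% of probes were well above background.

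Control spots and 1327 of 520548 spot values marked as uneven or outliers were left out, spots of a probe were averaged, and log2 intensity minus the array's 75th percentile was fitted in R 4.3.3 with limma 3.58.1 (lmFit, eBayes) over all 4 groups, which share the estimate of spread. Error is the standard error from that fit. P-values of the contrast were adjusted by the Benjamini-Hochberg method over 20549 probes. Of 41174 probes, 23082 were named by accession, 9655 by a symbol or synonym in RefSeq and 1866 by the file's symbol alone, and 6571 had no symbol. A gene in a list is read from its brightest tested probe. Named were the 12 largest called differences in each direction with values that did not overlap, up to 4 called genes per list or else its 2 brightest, up to 5 genes per direction detected with 1 protein only, and of the study's tabulated genes up to 6 called and 4 not past the threshold. Others are marked. A few genes that this rule names are not reported here. The members and lists were chosen with earlier results of these data known. The code was tested on simulated data. Figures were drawn with matplotlib 3.10.9. The alternatives were other background corrections, scalings, filters, slide and replicate terms, leaving out single arrays, and the methods' t-test.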

Additional observations from a re-analysis of the deposited data

How the results depend on the processing

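The 30 called probes (12 higher with Wnt3a and 18 lower) became 26 (14 and 12) with quantile normalization, and the count stayed within 1.5 times with other scalings, slide terms, no filter, the 6 arrays alone or the deposited value table. Requiring detection in at least 1 of the 2 groups gave 22 higher, in at least 1 of the 4 groups 46 (23 higher), and a positive and significant signal 46 (19 higher). The shared slide alone gave 66 (21 higher, 45 lower), and adjusted p alone 379 (88 and 291). The methods' t-test gave 32 at the unadjusted threshold and 0 after Benjamini-Hochberg, 0 in each direction, while limma had 3115 probes at an unadjusted p under 0.05. Leaving out single arrays gave 25 to 56 probes, 7 to 18 higher and 17 to 38 lower, with the extremes of the total without Wnt3a replicate 2 and without Wnt3a replicate 3. Plain normexp called 0 probes, 0 in each direction, and turned the differences of *Enpp2* (-0.0784), *Car6* (-0.219), *Helt* (-0.096), *Fhl1* (-0.0762) and *Igf1* (-0.378). On Rspo2 replicate 2, where 311 spots had a local background above 2 times the median, it set the lowest 1% of values at 988, and on BSA replicate 1 at 277, against 56.3 to 63.2 elsewhere. With those backgrounds at the median, an alternative chosen after seeing the data, 4 probes were called, 2 higher and 2 lower, the differences of the 26 genes ran from 0.424 to 1.47 in size, and none turned. Replicate numbers did not pair the arrays (correlations of same-numbered deviations -0.225, 0.264 and 0.0841), and the replicate block gave 29 (12 higher, 17 lower). Of 45 list genes past the adjusted p, 18 still passed with slide as a term and 13 with the 6 arrays alone. The medians of the Wnt target (0.206 to 0.343), interferon-stimulated (-0.369 to -0.266) and acute phase lists (-0.533 to -0.339) kept their sign in all settings. The cause of each change was not tested.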
